A study of Mus musculus with 35 samples.

Results

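Serpins are a superfamily of protease inhibitors and related proteins, and 47 of the 19937 genes measured carried a serpin symbol of clade A to I. They were taken by symbol alone, as every gene with a serpin name of that form that was the single gene of a probe set. No serpin had more than 1 such probe set. The samples were 35 pools of sorted mouse mammary cells in 12 groups, run on 1-colour Affymetrix arrays. Each pool came from the fourth mammary glands of 5 mice, and neither strain nor genotype of the mice is stated in the labels. Mating at 42 days of age, 21 days of nursing and 40 days of involution preceded the collection of parous glands, and the nulliparous mice were virgins of matched age. Both histories were sorted into the same 6 subpopulations, which were stromal cells, total epithelial cells, luminal Sca1-negative and Sca1-positive cells (CD24 high) and basal CD49f-low and CD49f-high cells (CD24 low, Sca1-negative). There were 17 parous and 18 nulliparous samples, with 3 in each group except parous basal CD49f-high, which had 2 (replicates 2 and 3) because 1 array was left out by the submitters for poor hybridisation. A sample held 10000 cells, or 2000 cells in the basal CD49f-high groups. The labels call the samples biological replicates. They do not say whether samples of the same history and number were sorted from the same mice. The main fit treated all 35 as independent.

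An inhibitory serpin presents an exposed loop as bait, and a protease that cuts it is trapped in a covalent complex while the serpin changes shape. Clade A serpins are mostly secreted plasma proteins such as the alpha-1-antitrypsins, and clade B serpins are mostly intracellular and guard cells against their own or neighbouring proteases. Some family members no longer inhibit proteases at all, among them the collagen chaperone Serpinh1, the secreted factor Serpinf1 and maspin (Serpinb5), which was described as a product of normal mammary epithelium. In the mammary gland, plasminogen activation and other proteolysis accompany the regression that follows weaning.

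Of the 47 serpins, 14 belonged to clade A and 24 to clade B. In mouse, 13 of the clade A genes lie on chromosome 12, and the clade B genes lie in clusters on chromosome 1 (11 genes) and chromosome 13 (13 genes), as annotated in GRCm38.p6. The deposited values are on a log2 scale, so that a difference of 1 is a doubling of signal, and probe sets differ in how well they bind, so levels are compared here between samples and not between genes. As a rough guide to detection, 18 serpins (38.3%) had a mean above the median of all gene-level values, 6.0, in at least 1 group, against 60.5% of all genes. The other 29 stayed below it in all 12 groups.

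The sorted populations carried the markers their labels call for, with some markers of other cells. The mean of 10 fibroblast markers was 10.11 to 10.63 in stromal samples and 5.81 to 7.31 elsewhere. The mean of 10 basal markers was 9.80 to 10.79 in total epithelial and basal samples, 6.19 to 7.49 in luminal samples and 7.65 to 8.24 in stromal samples. The mean of 11 pan-luminal markers was 10.32 to 10.66 in luminal samples 8.36 to 9.11 in basal samples and 6.75 to 8.86 in stromal samples. Stromal samples therefore differed among themselves in luminal signal, within both histories.

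Sequences upstream of 3 clade B genes are shown because Serpinb11 and Serpinb9 carry the parity results described first, and Serpinb10, which had no parity call, is a neighbour of Serpinb11 in its cluster. Each is the 250 bases before the gene's start in RefSeq (GRCm38.p6, plus strand), at chr1:107362064-107362313 for Serpinb11, chr1:107528753-107529002 for Serpinb10 and chr13:33004291-33004540 for Serpinb9. Capitals mark matches to any of 4 patterns searched on both strands. The first was the TATA box, as TATAAA. The next was the CCAAT box, as CCAAT. A STAT-type pattern was spelled TTCNNNGAA, and the last was an AP-1-type pattern, TGANTCA.
Serpinb11: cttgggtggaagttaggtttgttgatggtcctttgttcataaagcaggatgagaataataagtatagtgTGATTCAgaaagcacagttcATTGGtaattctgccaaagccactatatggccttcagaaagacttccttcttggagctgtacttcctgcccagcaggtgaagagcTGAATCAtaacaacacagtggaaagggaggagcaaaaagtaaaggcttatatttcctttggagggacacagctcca
Serpinb10: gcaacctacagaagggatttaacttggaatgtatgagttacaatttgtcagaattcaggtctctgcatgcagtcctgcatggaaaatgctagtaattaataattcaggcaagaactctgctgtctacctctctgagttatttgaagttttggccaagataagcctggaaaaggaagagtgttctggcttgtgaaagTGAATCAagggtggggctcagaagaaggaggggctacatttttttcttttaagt
Serpinb9: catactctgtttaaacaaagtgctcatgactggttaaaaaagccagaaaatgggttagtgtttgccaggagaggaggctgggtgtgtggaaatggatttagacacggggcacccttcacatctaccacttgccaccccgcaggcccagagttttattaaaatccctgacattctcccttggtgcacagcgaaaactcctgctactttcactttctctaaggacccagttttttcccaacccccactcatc
The AP-1-type pattern, which reads the same on both strands, began 181 and 76 bases before the start of Serpinb11 and 54 bases before that of Serpinb10. The CCAAT box matched on the minus strand of the Serpinb11 window, 161 bases before the start, and no match overlapped another. The Serpinb9 window held none of the 4. Neither did the window of Serpinb6b, described further below, which was searched in the same way and is not shown. The AP-1-type pattern occurred in 20.4% of the 49 windows that belong to 41 of the 47 serpins and in 6.75% of all 32851 mouse windows of this length. The CCAAT box occurred in 28.6% of the serpin windows and 33.8% of all windows, the TATA box in 28.6% and 12.4%, and the STAT-type pattern in 12.2% and 7.02%. A match describes the letters and is not evidence of binding.

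Serpinb11 gave the largest parity difference of any serpin. Its mouse product is an intracellular inhibitor of trypsin-like proteases. In basal CD49f-high cells it read 3.15 and 2.98 in the parous samples, against 7.25, 8.30 and 9.39 in the nulliparous samples. The parous samples were as low as luminal and stromal samples, and every nulliparous sample stood more than 4 log2 units above them. The difference was -5.25 (SE 0.77, adjusted p = 6.2e-05 by limma), and it is given with no fold because the parous samples may be at background. In basal CD49f-low cells the parous samples read 3.44, 3.02 and 3.15, against 4.29, 7.54 and 8.18 in the nulliparous samples, a difference of -3.47 (SE 0.69, adjusted p = 0.0075). In total epithelial cells, which include the basal cells, the parous samples read 2.94, 2.86 and 2.99, against 3.71, 7.07 and 7.51 in the nulliparous samples, a difference of -3.17 (SE 0.69, adjusted p = 0.0247). The groups did not overlap in any of these 3 subpopulations, and in CD49f-low and total epithelial cells the nulliparous sample numbered 1 lay far below the others. Each SE and adjusted p given for Serpinb11 from the fit of all samples together rests on the spread shared by all 12 groups. Luminal and stromal samples varied little, and the shared spread is narrower than that of the nulliparous samples in these 3 subpopulations. These SE and adjusted p therefore do not measure the spread of the compared groups alone.

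In the remaining subpopulations Serpinb11 was low in both histories. Luminal Sca1-negative samples read 2.92 to 3.11 in parous and 3.02 to 3.25 in nulliparous mice, luminal Sca1-positive samples 2.98 to 3.31 and 3.09 to 3.44, and stromal samples 2.91 to 3.13 and 2.96 to 3.22. The difference in parity effect between basal and luminal cells was itself past the threshold, at -4.23 (SE 0.71, adjusted p = 8.2e-04). The parity effects in CD49f-high and CD49f-low cells differed by -1.78 (95% interval -3.90 to 0.34), which did not pass (adjusted p = 0.44). These arrays measured pools of cells, so fewer cells with the transcript and less transcript per cell cannot be told apart.

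The Serpinb11 difference in basal CD49f-high cells stayed between -5.78 and -4.71 when each of the 35 samples was left out in turn. Its call held with any sample outside the parous CD49f-high group left out. Leaving out either of the 2 parous CD49f-high samples left 1 array there, so for those fits only the difference, within the same range, is given. In basal CD49f-low cells it was lost without nulliparous replicate 2 (-3.03, adjusted p = 0.0843) or 3 (-2.71, adjusted p = 0.0678). In total epithelial cells it was lost without nulliparous replicate 2 (adjusted p = 0.256) or 3 (adjusted p = 0.232) and without any of the 3 parous replicates (adjusted p 0.0814 to 0.115). Fitted on the samples of 1 subpopulation alone, none of the 3 passed, with adjusted p of 0.0865 in CD49f-high, 0.151 in CD49f-low and 0.224 in total epithelial cells. The mean of the basal markers was 10.12 to 10.25 in parous against 9.80 to 10.19 in nulliparous total epithelial samples, 10.33 to 10.49 against 10.31 to 10.45 in CD49f-low samples and 10.61 to 10.79 against 10.07 to 10.47 in CD49f-high samples, with 0, 0 and 4 of 10 markers called, all 4 higher in parous. The mean of the fibroblast markers was lower in the same parous samples, at 6.32 to 6.88 against 6.64 to 7.31 in total epithelial, 6.34 to 6.55 against 6.73 to 7.17 in CD49f-low and 5.93 to 5.96 against 6.05 to 6.48 in CD49f-high samples, with 0, 1 (Lum) and 1 (Cd34) of 10 called lower. The part of these cells in the Serpinb11 difference was not tested.

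**Figure D1:**
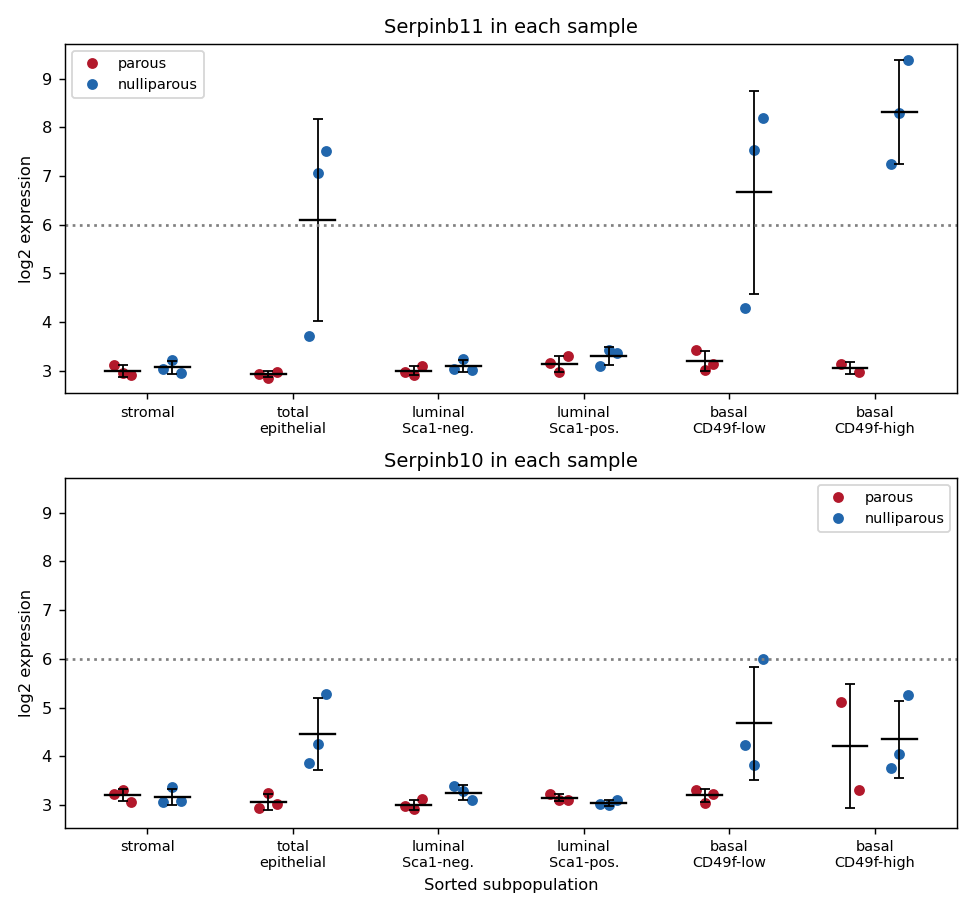
Log2 expression of Serpinb11 (top) and Serpinb10 (bottom) in each sample of the 6 subpopulations, parous in red at the left and nulliparous in blue at the right of each pair; bars give mean and SD and the dotted line the median of all gene-level values (6.0). Serpinb11 is near 3 everywhere except in nulliparous total epithelial and basal samples, where it reaches 9.39.

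Serpinb10 lies in the same cluster on chromosome 1 and encodes an inhibitor known in human mainly from blood-forming cells. In total epithelial cells it read 2.93, 3.24 and 3.02 in parous samples, against 3.86, 4.25 and 5.29 in nulliparous samples. In basal CD49f-low cells it read 3.31, 3.05 and 3.23 in parous samples, against 4.23, 3.81 and 5.99 in nulliparous samples. The groups did not overlap in either, but the differences of -1.40 (SE 0.41, adjusted p = 0.17) and -1.48 (SE 0.41, adjusted p = 0.0821) did not pass. In basal CD49f-high cells the parous samples read 5.11 and 3.31 and overlapped the nulliparous samples at 3.76, 4.04 and 5.25. Across both histories Serpinb10 was higher in basal than in luminal cells by 0.99 (SE 0.21, adjusted p = 3.4e-04).

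In stromal cells 5 of the 47 serpins were called for parity, all lower in parous cells, which is 10.6% of them, against 0.597% of all genes called in either direction and 0.492% called lower. The median difference over all 47 was 0.01, against 0.03 over all genes, so the 5 are a minority of the family. They were Serpinb9, Serpinb1a, Serpina10, Serpina1c and Serpinb5.

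Serpinb9, the inhibitor of granzyme B, read 5.64, 5.01 and 5.23 in parous stromal samples, against 7.18, 6.64 and 6.38 in nulliparous stromal samples. All parous samples lay below all nulliparous samples, with a difference of -1.44 (SE 0.25, 2.71-fold lower, adjusted p = 0.0024). Serpinb1a, the mouse counterpart of the neutrophil elastase inhibitor, read 6.64, 5.83 and 6.27 in parous stromal samples, against 8.57, 7.64 and 7.29 in nulliparous stromal samples. Again the groups did not overlap, with a difference of -1.58 (SE 0.30, 3.00-fold lower, adjusted p = 0.0057). Both genes lie in the chromosome 13 cluster. The Serpinb9 call held with any sample left out, and that of Serpinb1a was lost without parous replicate 2 (-1.38, adjusted p = 0.0519) or nulliparous replicate 1 (-1.22, adjusted p = 0.0933).

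Serpina10 is the protein Z-dependent inhibitor of clotting factor Xa. It read 5.17, 5.81 and 5.26 in parous stromal samples, against 6.66, 5.80 and 6.57 in nulliparous stromal samples, and the parous sample numbered 2 overlapped the lowest nulliparous sample. The difference was -0.93 (SE 0.19, adjusted p = 0.0126). Serpina1c, 1 of several near-identical alpha-1-antitrypsin copies that a probe may not tell apart, read 2.92, 3.83 and 2.76 in parous samples, against 5.74, 3.96 and 4.08 in nulliparous samples, a difference of -1.42 (SE 0.34, adjusted p = 0.0437). Serpinb5 read 4.90, 4.67 and 3.68 in parous samples, against 5.23, 6.40 and 4.92 in nulliparous samples, a difference of -1.10 (SE 0.26, adjusted p = 0.0436). These last 2 groups of values are separated by narrow gaps, and 1 nulliparous sample in each stood well above the rest.

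Each of the Serpina10, Serpina1c and Serpinb5 calls depended on single samples. That of Serpina10 was lost without parous replicate 1 (adjusted p = 0.098) or 3 (adjusted p = 0.0812) and without nulliparous replicate 1 (adjusted p = 0.145) or 3 (adjusted p = 0.0884), all stromal. Serpina1c fell to a difference of -0.85 (adjusted p = 0.372) without nulliparous stromal replicate 1, and its call was lost with any of 18 of the 35 samples left out. Serpinb5 gave -0.73 (adjusted p = 0.291) without parous stromal replicate 3 and -0.66 (adjusted p = 0.366) without nulliparous stromal replicate 2, and its call was lost with any of 20 samples left out. When the 6 stromal samples were fitted alone none of the 5 serpins passed, the adjusted p being 0.0972 for Serpinb9, 0.189 for Serpinb1a, 0.338 for Serpina10, 0.412 for Serpina1c and 0.463 for Serpinb5. When the nulliparous samples numbered 1 were left out of every subpopulation, Serpinb9 and Serpinb1a passed and the other 3 did not.

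Probe sets that match several genes were kept out of the 47. A probe set shared by the alpha-1-antitrypsin genes Serpina1a to Serpina1e read 5.84, 6.66 and 5.50 in parous stromal samples, against 9.25, 8.07 and 8.52 in nulliparous stromal samples, and 5.28 to 6.75 in all other samples of both histories. The parous stromal samples thus lay within the range of the epithelial samples and the nulliparous stromal samples above it. In a fit over all 34760 probe sets it was lower in parous stromal cells by -2.61 (SE 0.29, adjusted p = 1.2e-05), where 0.319% of probe sets were called. A second probe set of the same genes read 3.66, 4.16 and 3.70 in parous stromal samples, against 7.5, 4.78 and 4.84 in nulliparous stromal samples, a difference of -1.87 (adjusted p = 0.0236). Both lie in the direction of Serpina1c in the same samples, and the alpha-1-antitrypsin copies cannot be told apart by them. The probe set of Serpina1d alone, another of these copies, was called in no comparison, and its group means ran only from 3.48 to 3.83. The other 3 shared probe sets, of Serpinb9d to Serpinb9g, had no parity difference past the threshold in stromal cells (adjusted p 0.79, 0.93 and 0.98).

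Markers of other cells moved with parity in the same stromal samples. The basal keratins Krt14 and Krt5 were lower in parous stromal cells by -2.0 (SE 0.22) and -1.85 (SE 0.18), 2 of 10 basal markers called, and the mean of the 10 was 7.65 to 7.81 in parous against 8.19 to 8.24 in nulliparous samples. The endothelial gene Pecam1 was lower by -1.55 (SE 0.36), 1 of 10 endothelial markers called, and the mean of the 10 was 6.81 to 7.05 in parous against 7.27 to 7.84 in nulliparous samples. Luminal markers ranged from 6.75 to 8.24 in parous and from 6.85 to 8.86 in nulliparous samples, with 0 of 11 called. The fibroblast markers averaged 10.11 to 10.30 in parous against 10.34 to 10.63 in nulliparous samples, which did not overlap, with 1 of 10 called (Col3a1). Macrophage and dendritic cell markers ranged from 5.50 to 5.74 and from 5.51 to 5.94, and T, NK and B cell markers from 4.49 to 4.67 and from 4.59 to 4.79, with none called. The part of these cells in the 5 serpin differences was not tested.

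**Figure D2:**
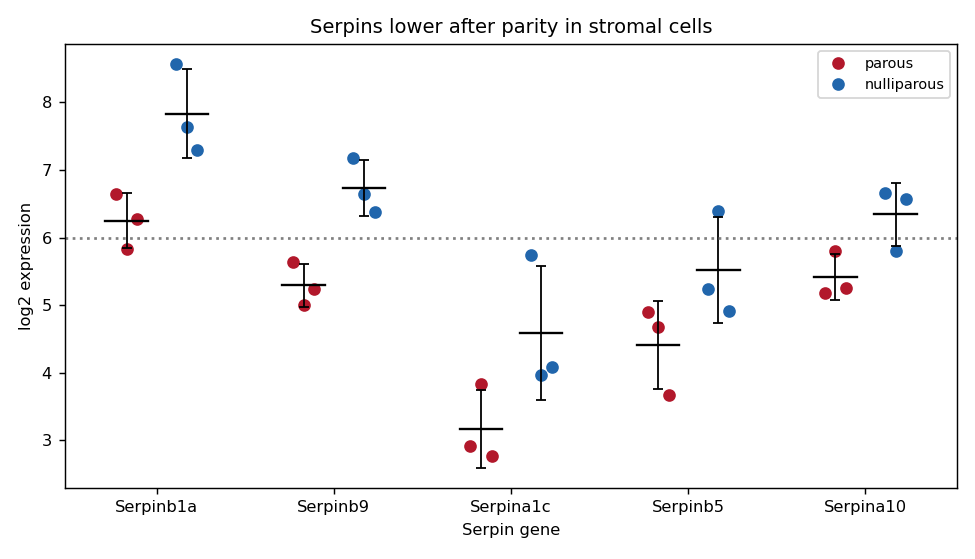
Log2 expression of the 5 serpins called lower in parous stromal cells, in each of the 3 parous (red, left) and 3 nulliparous (blue, right) stromal samples; bars give mean and SD and the dotted line the median of all gene-level values (6.0). The groups separate for Serpinb1a and Serpinb9, touch for Serpina10, and are spread by 1 high nulliparous sample for Serpina1c (5.74) and Serpinb5 (6.40).

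Serpinb9 differed in the opposite direction in basal CD49f-high cells, where it read 6.75 and 6.10 in parous samples, against 4.88, 4.83 and 4.54 in nulliparous samples. Both parous samples stood more than 1 log2 unit above every nulliparous sample, with a difference of 1.68 (SE 0.28, 3.19-fold higher, adjusted p = 3.0e-04). The difference stayed between 1.35 and 2.00 when each sample was left out in turn. Its call held with any sample outside the parous CD49f-high group left out. Leaving out either of the 2 parous CD49f-high samples left 1 array there, so for those fits only the difference, within the same range, is given. Serpinb9 and Serpinb11 were the 2 serpins called in this subpopulation (4.26% of 47), where 9.06% of all genes were called. Fitted on the CD49f-high samples alone, the adjusted p for Serpinb9 was 0.106. In CD49f-low cells Serpinb9 read 5.22, 5.66 and 5.23 in parous samples, against 5.64, 5.78 and 5.26 in nulliparous samples, a difference of -0.18 (SE 0.25). The parity effect in CD49f-high cells exceeded that in CD49f-low cells by 1.86 (SE 0.38, adjusted p = 0.0080).

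In total epithelial cells Serpinb9 read 5.30, 5.04 and 5.88 in parous samples, against 5.25, 4.79 and 4.75 in nulliparous samples, a difference of 0.48 (SE 0.25) that did not pass. Its parity effect in stromal cells lay below that in total epithelial cells by -1.92 (SE 0.36, adjusted p = 0.0120), a call that was lost without parous total epithelial replicate 3 (adjusted p = 0.0567), nulliparous stromal replicate 1 (adjusted p = 0.0504) or nulliparous total epithelial replicate 2 (adjusted p = 0.0551). Luminal differences were 0.43 (SE 0.25) in Sca1-negative and 0.76 (SE 0.25) in Sca1-positive cells, and neither passed. Averaged over the 4 sorted epithelial subpopulations, Serpinb9 was higher in parous cells by 0.67 (SE 0.13, adjusted p = 0.0014). This is an average of unlike effects in basal CD49f-high and CD49f-low cells. In basal CD49f-high cells 4 of 10 basal markers were also higher in parous samples, and the macrophage gene Cd68 was higher by 1.20 (SE 0.29), 1 of 10 macrophage and dendritic cell markers, whose mean was 5.87 to 6.23 in parous against 5.34 to 6.21 in nulliparous samples. Basal markers averaged 7.27 to 7.49 in parous against 6.67 to 6.89 in nulliparous luminal Sca1-negative samples, with 4 of 10 called higher, and endothelial markers 5.73 to 6.06 against 5.23 to 5.54 in luminal Sca1-positive samples. The part of these cells in the Serpinb9 differences was not tested.

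Serpinb6b, a mouse inhibitor of granzyme A from the same cluster, differed in its parity effect between stromal and total epithelial cells. In stromal cells it read 5.01, 5.49 and 5.76 in parous samples, against 7.04, 5.68 and 6.80 in nulliparous samples, a difference of -1.09 (SE 0.27, adjusted p = 0.0698). In total epithelial cells it read 7.49, 7.46 and 6.76 in parous samples, against 6.55, 5.75 and 6.62 in nulliparous samples, a difference of 0.93 (SE 0.27, adjusted p = 0.18). In basal CD49f-low cells it read 7.90, 7.49 and 7.19 in parous samples, against 6.89, 6.85 and 6.48 in nulliparous samples, a difference of 0.78 (SE 0.27, adjusted p = 0.24). In CD49f-high cells the parous samples read 7.49 and 7.06 and overlapped the nulliparous samples at 7.36, 7.12 and 7.17. No single subpopulation passed, but the stromal effect lay below the total epithelial effect by -2.01 (SE 0.39, adjusted p = 0.0159). This call was lost without any of parous stromal replicate 1, parous total epithelial replicate 1 or 2, nulliparous stromal replicate 1 or nulliparous total epithelial replicate 2 (adjusted p 0.0559 to 0.0792). The stromal and total epithelial effects differed for 2 of the 47 serpins, Serpinb9 and Serpinb6b (4.26%), against 0.166% of all genes.

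**Figure D3:**
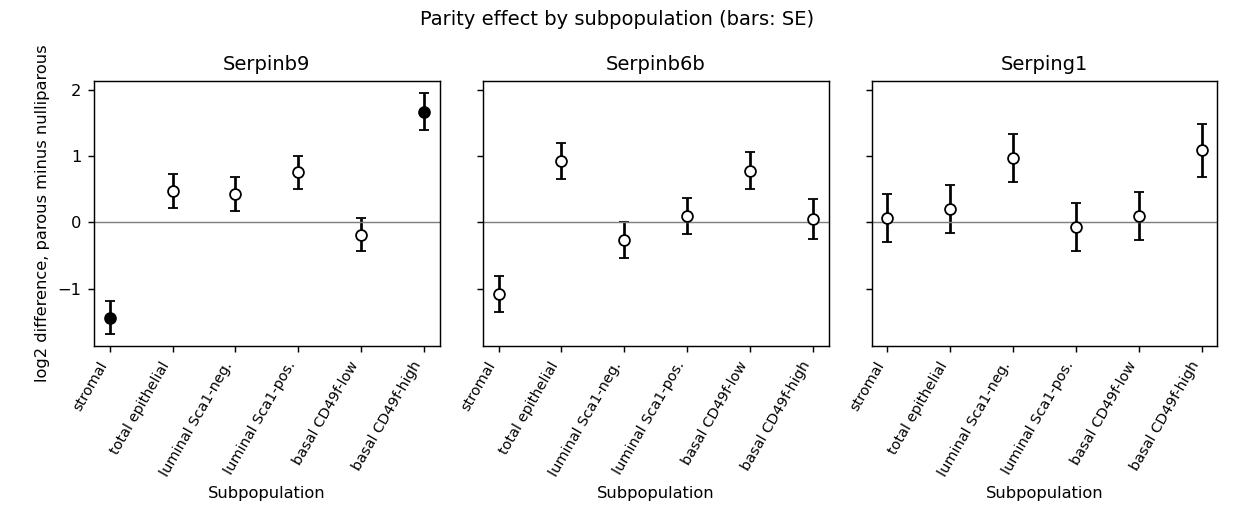
Difference between parous and nulliparous samples (log2, parous minus nulliparous) in each subpopulation for Serpinb9, Serpinb6b and Serping1; bars give the SE, and filled points passed the test across all genes. Serpinb9 runs from -1.44 in stromal to 1.68 in basal CD49f-high cells, and no single subpopulation passed for Serpinb6b or Serping1.

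Most serpins were not called for parity. Total epithelial cells had 1 call (Serpinb11), 2.13% of the 47 against 0.446% of all genes, and basal CD49f-low cells had the same 1 call against 0.968% of all genes. Luminal Sca1-negative cells had none by limma, with 4 serpins at an unadjusted p under 0.05, against 1.00% of all genes called. Luminal Sca1-positive cells had none by limma, with 2 at an unadjusted p under 0.05, against 0.607% of all genes called. Over the 6 subpopulations together 6 serpins (12.8%) were called in at least 1, against 11.3% of all genes. Parous and nulliparous values did not overlap for 12 serpins in stromal cells (25.5%, against 15.9% of all genes), 8 in total epithelial (17%, against 15%), 6 in luminal Sca1-negative (12.8%, against 17.7%), 3 in luminal Sca1-positive (6.38%, against 12.9%), 9 in CD49f-low (19.1%, against 14.3%) and 13 in CD49f-high cells (27.7%, against 27.7%). The mean parity effect over the 4 sorted epithelial subpopulations was called for Serpinb11 (-2.24, SE 0.36), Serpinb9 and Serpinb3c (6.38%, against 6.20% of all genes). Serpinb3c, from the squamous cell carcinoma antigen cluster, differed by only -0.18 (SE 0.05, adjusted p = 0.0419) around a level of 3.04 in parous and 3.21 in nulliparous cells, and its call was lost with any of 16 samples left out. With the pool as a random block it was also lost (adjusted p = 0.0811), as it was with array weights (adjusted p = 0.0824), quantile normalization (adjusted p = 0.0543) or no trend (adjusted p = 0.0571). The difference between parity effects in basal and luminal cells was called for Serpinb11 alone (2.13%, against 2.04% of all genes), that between CD49f-high and CD49f-low cells for Serpinb9 alone (2.13%, against 2.27%), and that between Sca1-positive and Sca1-negative cells for none by limma (against 0.0953%), with 1 serpin at an unadjusted p under 0.05. The F test for any difference of the parity effect among the 6 subpopulations was called for Serpinb9 (F = 15.70), Serpinb11 (F = 9.47) and Serpinb6b (F = 7.15), 6.38% of the 47 against 2.80% of all genes.

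Serping1, the C1 inhibitor that blocks the complement proteases C1r and C1s, read 11.84, 11.84 and 11.85 in parous stromal samples, against 11.81, 11.70 and 11.81 in nulliparous stromal samples. The stromal difference was 0.07 (95% interval -0.67 to 0.81) and did not pass, although the groups did not overlap. That interval rests on the spread shared by all 12 groups, which is wider than that of the stromal samples. In luminal Sca1-negative cells it read 7.87, 7.71 and 7.76 in parous samples, against 7.35, 6.64 and 6.43 in nulliparous samples, a difference of 0.97 (SE 0.36, adjusted p = 0.26). In basal CD49f-high cells it read 8.87 and 8.56 in parous samples, against 8.59, 7.88 and 6.40 in nulliparous samples, a difference of 1.09 (SE 0.41, adjusted p = 0.0952). The parous values were tight and the nulliparous values spread in both, and the basal markers that were higher in parous samples of both sorts are given above for Serpinb9.

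Maspin (Serpinb5) differed little with parity in epithelial cells other than basal CD49f-high cells. Its differences were -0.07 in total epithelial, 0.02 in luminal Sca1-negative, -0.05 in luminal Sca1-positive and -0.06 in basal CD49f-low cells, with an SE of 0.26 in each. In basal CD49f-high cells it read 9.09 and 8.84 in parous samples, against 9.47, 9.84 and 9.88 in nulliparous samples, which did not overlap, but the difference of -0.76 (SE 0.29, adjusted p = 0.11) did not pass. For Serpinf1, Serpina3n, Serpinb6a, Serpinh1 and Serpini1 no parity difference passed in any subpopulation, and the largest among them were 0.46 for Serpinf1 in luminal Sca1-negative cells (SE 0.19) and -0.46 for Serpini1 in basal CD49f-high cells (SE 0.29).

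Between stromal and total epithelial cells 16 serpins were called (34.0%, against 29.2% of all genes), 13 of them higher in stromal cells (27.7%, against 13.6%) and 3 lower (6.38%, against 15.6%). Between basal and luminal cells 14 were called (29.8%, against 35.0% of all genes), 13 higher in basal cells (27.7%, against 15.5%) and 1 lower (2.13%, against 19.5%). In each of the 4 comparisons of subpopulations both histories were averaged. Any of the 4 was called for 22 serpins (46.8%), against 51.8% of all genes.

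The secreted and extracellular serpins were led in stroma by Serping1, which ran from 11.70 to 11.85 (median 11.83) in the 6 stromal samples, against 7.74 to 9.38 (median 8.56) in the 6 total epithelial samples. The ranges lay far apart, with a difference of 3.21 (SE 0.26, 9.23-fold, adjusted p = 2.5e-11). Serpinf1, pigment epithelium-derived factor, ran from 10.58 to 10.70 (median 10.60) in stromal samples, against 8.19 to 8.77 (median 8.51) in total epithelial samples, a difference of 2.11 (SE 0.14, adjusted p = 1.8e-13). Serpini1, or neuroserpin, an inhibitor of tissue plasminogen activator, was higher in stromal cells by 0.92 (SE 0.18). Smaller differences in the same direction were called for Serpina10 (0.79, SE 0.14), Serpina1c (0.69, SE 0.24), the thrombin inhibitor heparin cofactor II or Serpind1 (0.34, SE 0.13) and Serpine3 (0.24, SE 0.08). The last 3 of these were lost when single samples were left out, for 5, 17 and 5 of the 35 samples for Serpina1c, Serpind1 and Serpine3 in turn, and Serpina1c fell to 0.40 (adjusted p = 0.149) without nulliparous stromal replicate 1.

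Among the intracellular clade B serpins, Serpinb1a was higher in stromal than in total epithelial cells by 2.18 (SE 0.21, adjusted p = 1.7e-09). Serpinb6a, an inhibitor of cathepsin G, ran from 9.20 to 10.04 (median 9.79) in stromal samples, against 7.88 to 8.48 (median 8.19) in total epithelial samples, a difference of 1.53 (SE 0.15). Serpinb6c was higher by 0.76 (SE 0.15). Serpinb9 was higher by 0.85 (SE 0.18) as an average of unlike histories, with means of 5.29 in stromal and 5.41 in total epithelial cells of parous mice, and of 6.73 and 4.93 in those of nulliparous mice. Serpinb2, the urokinase inhibitor PAI-2, was called at 0.94 (SE 0.35, adjusted p = 0.0415), which rested on nulliparous stromal replicate 2. That sample read 8.61, against 5.40 and 5.00 in the other nulliparous stromal samples, and without it the difference was 0.38 (adjusted p = 0.142). Leaving out any of 6 further samples also ended the call.

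Serpinb5 showed the strongest difference of all in the other direction. It ran from 3.68 to 6.40 (median 4.91) in stromal samples, against 9.11 to 9.52 (median 9.36) in total epithelial samples, and was lower in stromal cells by -4.38 (SE 0.19, 20.9-fold, adjusted p = 1.0e-17). Serpinb11 was lower in stromal cells by -1.48 (SE 0.49, adjusted p = 0.0219), through the nulliparous total epithelial samples, and the call was lost without nulliparous total epithelial replicate 2 (adjusted p = 0.0773) or 3 (adjusted p = 0.0907). Serpinb6b was lower by -0.81 (SE 0.19, adjusted p = 0.0017), again as an average of unlike histories, with means of 5.42 in stromal and 7.24 in total epithelial cells of parous mice, and of 6.51 and 6.31 in those of nulliparous mice.

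Serpinh1, the collagen chaperone Hsp47 of the endoplasmic reticulum, ran from 8.66 to 9.34 (median 8.83) in stromal samples, against 7.55 to 8.23 (median 7.86) in total epithelial samples, a difference of 1.05 (SE 0.18, adjusted p = 2.2e-05). In a list of collagens and collagen folding enzymes, 19 of 21 measured genes were higher in stromal cells (against 13.6% of all genes) and 1 was lower (against 15.6%), with a median difference of 0.74, against 0.02 over all genes. The largest were Col3a1 (2.89, SE 0.11), Col1a2 (2.71, SE 0.11), Col6a1 (2.34, SE 0.14) and Col5a2 (2.02, SE 0.10), and Col12a1 was the 1 lower (-0.97, SE 0.13). With parity, Serpinh1 itself did not pass in any subpopulation, and Col3a1 was lower in parous stromal cells (-0.88, SE 0.15), Col4a2 in CD49f-low cells (-0.69, SE 0.16) and Plod2 (-1.48, SE 0.31) and Col4a1 (-0.81, SE 0.19) in CD49f-high cells.

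Of 11 measured complement genes of the classical and alternative pathways, 8 were higher in stromal than in total epithelial cells (against 13.6% of all genes) and 0 lower (against 15.6%), with a median difference of 0.89, against 0.02 over all genes. The Serping1 targets C1s1 and C1ra were higher by 3.38 (SE 0.22) and 2.10 (SE 0.16), factor B of the alternative pathway (Cfb) by 2.32 (SE 0.16) and C2 by 1.59 (SE 0.12). With parity, only Cfb was called in stromal cells (-1.06, SE 0.22, adjusted p = 0.0138), reading 8.17, 9.21 and 8.99 in parous samples, against 10.28, 9.57 and 9.69 in nulliparous samples.

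**Figure D4:**
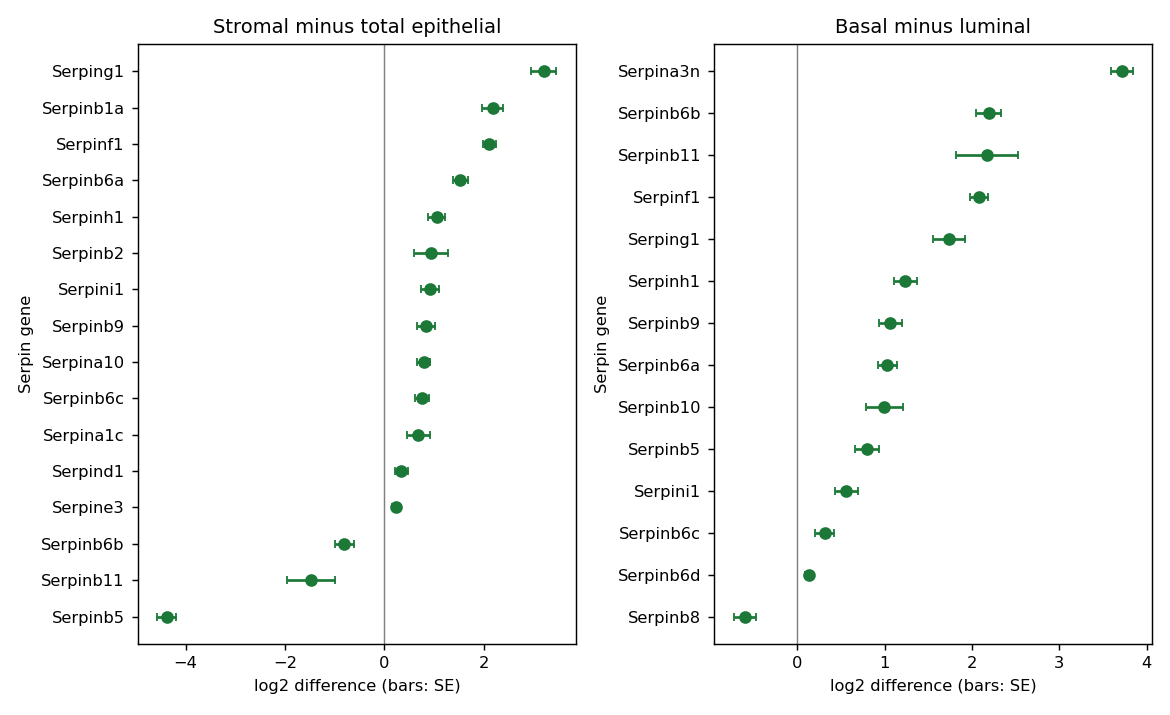
Differences in log2 expression for the serpins called between stromal and total epithelial cells (left, stromal minus total epithelial) and between basal and luminal cells (right, basal minus luminal), each averaged over both histories; bars give the SE. Serping1 at 3.21 and Serpinb5 at -4.38 mark the ends of the left panel, Serpina3n at 3.71 and Serpinb8 at -0.60 those of the right.

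Within the epithelium, Serpina3n, the antichymotrypsin-related inhibitor of granzyme B and elastase, marked the basal side. It ran from 9.47 to 9.99 (median 9.85) in basal CD49f-low samples and from 9.23 to 9.96 (median 9.57) in basal CD49f-high samples, against 5.92 to 6.76 (median 6.18) in luminal Sca1-negative and 4.92 to 5.99 (median 5.77) in luminal Sca1-positive samples. No basal sample came near a luminal one, and the difference was 3.71 (SE 0.12, 13.1-fold, adjusted p = 3.3e-20). Serpinb6b was higher in basal cells by 2.19 (SE 0.14), running from 6.48 to 7.90 in CD49f-low and 7.06 to 7.49 in CD49f-high samples, against 4.68 to 5.48 in Sca1-negative and 4.76 to 5.15 in Sca1-positive samples. Serpinb11 was higher by 2.17 (SE 0.36), which came from nulliparous samples.

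Serpinf1 was higher in basal than in luminal cells by 2.08 (SE 0.10), Serping1 by 1.73 (SE 0.19), Serpinh1 by 1.23 (SE 0.13), Serpinb9 by 1.06 (SE 0.13), Serpinb6a by 1.03 (SE 0.11), Serpinb5 by 0.79 (SE 0.13) and Serpini1 by 0.56 (SE 0.13). The Serpinb6a value came from the Sca1-positive side, since basal CD49f-low samples (7.84 to 8.28) and CD49f-high samples (7.72 to 8.45) overlapped luminal Sca1-negative samples (7.77 to 8.15) and lay above Sca1-positive samples (5.74 to 6.63). Serpinb6c (0.31, SE 0.11) and Serpinb6d (0.13, SE 0.04), further copies of the Serpinb6 group, were higher by small amounts, and each of these calls was lost with any of 3 samples left out. Serpinb8, an inhibitor of the proprotein convertase furin in human, was the 1 serpin lower in basal cells, by -0.60 (SE 0.13, adjusted p = 3.2e-04). Collagen genes ran the same way as Serpinh1, with 15 of 21 higher in basal cells (against 15.5% of all genes) and 1 lower (against 19.5%), led by Col14a1 (4.16, SE 0.08), Plod2 (3.10, SE 0.14), Col12a1 (2.92, SE 0.10) and Crtap (1.54, SE 0.16).

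Between the luminal subpopulations 6 serpins were called (12.8%, against 16.1% of all genes), 5 of them lower in Sca1-positive cells (10.6%, against 7.11%). Serpinb6a ran from 5.74 to 6.63 (median 6.26) in Sca1-positive samples, against 7.77 to 8.15 (median 7.96) in Sca1-negative samples, a difference of -1.75 (SE 0.15, 3.37-fold lower, adjusted p = 3.0e-10). Serping1 was lower by -1.16 (SE 0.26), Serpina3n by -0.57 (SE 0.17), Serpinh1 by -0.52 (SE 0.18) and Serpina3a, a relative of Serpina3n, by -0.21 (SE 0.07). Serpinc1, antithrombin, was the 1 higher in Sca1-positive cells (0.30, SE 0.09, against 9.0% of all genes called higher). The Serpinb6a and Serping1 calls held with any sample left out. Those of Serpina3n, Serpinc1, Serpina3a and Serpinh1 were lost with any of 2, 4, 5 and 9 samples left out, and Serpinh1 fell to -0.29 (adjusted p = 0.191) without parous luminal Sca1-positive replicate 3. Between basal CD49f-high and CD49f-low cells no serpin was called by limma (against 3.54% of all genes), and 8 had an unadjusted p under 0.05. Apart from leaving out single samples, 6 of 10 other settings also gave 0 calls. The pool as a random block gave 3 calls, the replicate number as a fixed term 2 and weights within each subpopulation 6. CD49f-high samples held 2000 cells and CD49f-low samples 10000, and the part of that was not tested.

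**Figure D5:**
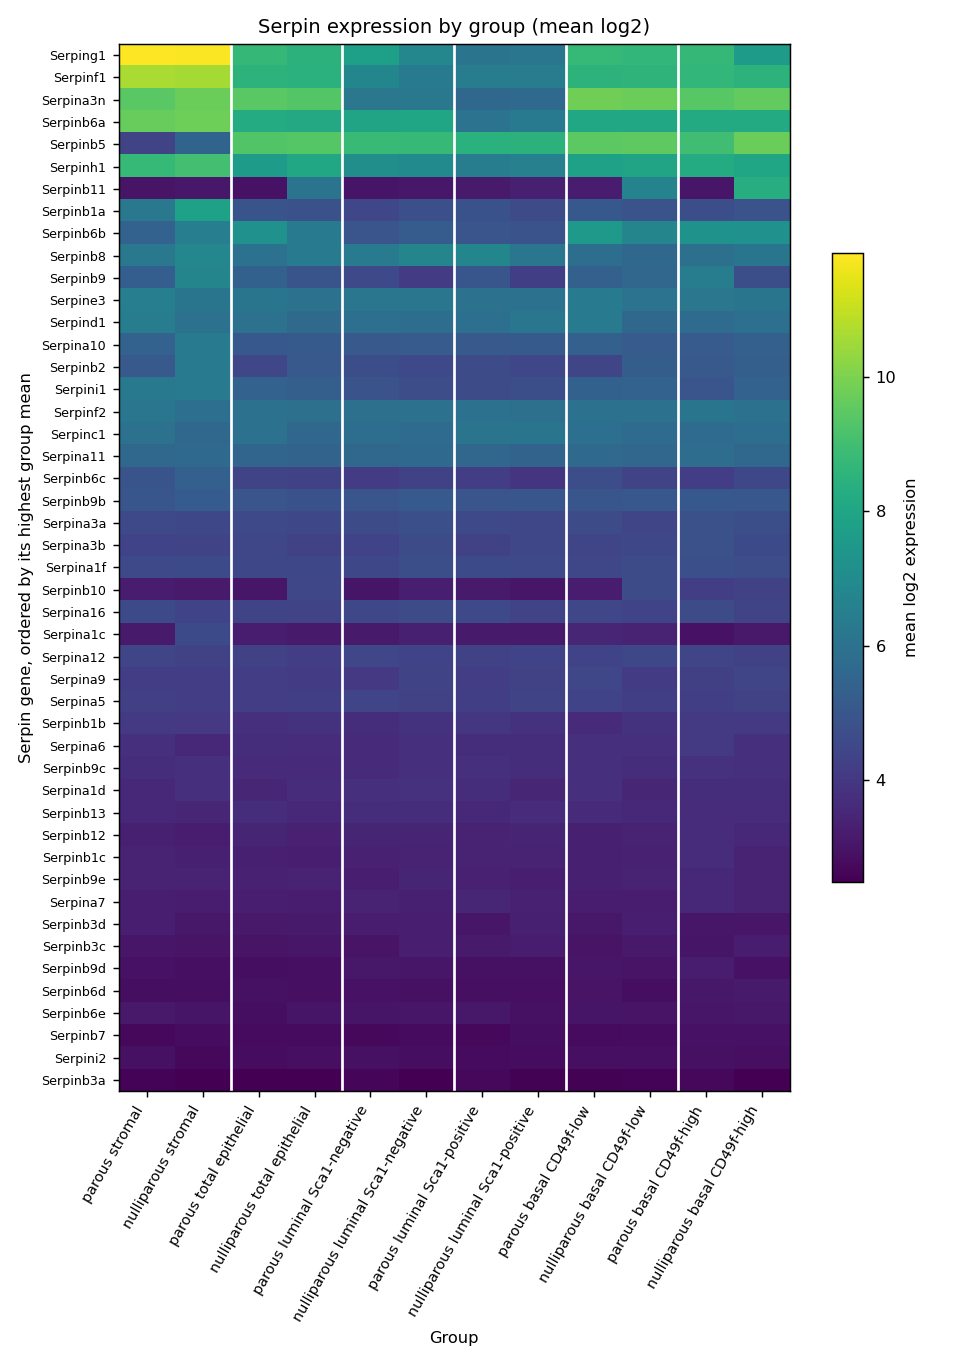
Mean log2 expression of the 47 serpins (rows, ordered by their highest group mean) in the 12 groups (columns, parous left of nulliparous in each subpopulation). Serpinb5 is low in the stromal columns, Serpina3n is low in the luminal columns, and Serpinb11 is bright in 3 nulliparous columns.

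In a list of plasminogen activation and clotting genes, 0 of 20 were higher and 5 were lower in parous basal CD49f-high cells. The median difference was -0.29, against 0.04 over all genes, and 9.06% of all genes were called there in either direction. Plat, tissue plasminogen activator and a target of Serpini1, was lower by -0.97 (SE 0.27), the protein C receptor Procr by -0.91 (SE 0.29), tissue factor F3 by -0.73 (SE 0.20) and the plasminogen receptor subunit Anxa2 by -0.51 (SE 0.14). In luminal Sca1-negative cells 1 was lower, the lipoprotein and protease-complex receptor Vldlr (-1.04, SE 0.25), and none was called in the other 4 subpopulations. Between stromal and total epithelial cells 10 of the 20 were higher (against 13.6% of all genes) and 3 lower (against 15.6%), and those that differed most were the receptors Procr (3.02, SE 0.18), Thbd (2.83, SE 0.27) and Vldlr (2.10, SE 0.18) and the matrix protein Vtn (2.99, SE 0.13).

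Among 24 epithelial and secreted serine proteases, the kallikreins Klk11 (-2.04, SE 0.18) and Klk10 (-1.74, SE 0.24) were lower in parous luminal Sca1-negative cells, and Klk11 was lower in parous total epithelial cells (-1.07, SE 0.18). In basal CD49f-high cells the membrane protease matriptase, St14, was lower by -1.31 (SE 0.26) and the proprotein convertase Pcsk6 by -0.71 (SE 0.20), and Prss23 was higher by 0.82 (SE 0.17). Tmprss6 was higher in parous luminal Sca1-positive cells (0.67, SE 0.12). A list of 14 granule and mast cell genes, mostly proteases, held granzymes and elastase, the targets given above for Serpinb9, Serpinb6b, Serpinb1a and Serpina3n. None of the 14 was called for parity by limma. Of all genes, 0.446% (total epithelial) to 9.06% (basal CD49f-high) were called in a single subpopulation. None of 7 mast cell markers, some of them in this list, had a group mean above the median of all gene-level values. At most 1 of 10 T, NK and B cell markers did in any group. Of 8 cysteine cathepsins, Ctsl was higher in parous luminal Sca1-negative cells (0.35, SE 0.09) and Ctsz was lower in parous basal CD49f-high cells (-0.63, SE 0.19).

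Of 27 protease inhibitors outside the serpin family, 1 was called for parity in stromal cells (against 0.597% of all genes), 1 in total epithelial (0.446%), 2 in luminal Sca1-negative (1.0%), 1 in luminal Sca1-positive (0.607%), 1 in CD49f-low (0.968%) and 6 in CD49f-high cells (9.06%). Slpi, the secreted leukocyte protease inhibitor, read 7.41, 7.87 and 6.79 in parous stromal samples, against 8.65, 8.97 and 8.73 in nulliparous stromal samples, a difference of -1.43 (SE 0.19, adjusted p = 8.6e-05) beside the 5 serpins that were lower there. Itih2, a heavy chain of the inter-alpha-trypsin inhibitor, was lower in parous total epithelial (-1.99, SE 0.28), luminal Sca1-negative (-1.98, SE 0.28) and luminal Sca1-positive cells (-2.32, SE 0.28), and Spink5 was lower in luminal Sca1-negative cells (-0.82, SE 0.14). Pi15 was lower in basal CD49f-low cells (-0.81, SE 0.16) and in basal CD49f-high cells (-0.58, SE 0.18). The metalloprotease inhibitors went both ways in parous basal CD49f-high cells, with Timp1 lower (-1.25, SE 0.30) and Reck (1.44, SE 0.26) and Timp2 (0.58, SE 0.14) higher.

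In total 23 of the 47 serpins (48.9%) were called in at least 1 comparison, against 54.5% of all genes, and their group means spanned 0.29 to 5.74 log2 units across the 12 groups. The other 24 were called in none, and their group means spanned 0.22 to 0.56 log2 units. They were Serpina1d, Serpina1f, Serpina3b, Serpina5, Serpina6, Serpina7, Serpina9, Serpina11, Serpina12, Serpina16, Serpinb1b, Serpinb1c, Serpinb3a, Serpinb3d, Serpinb6e, Serpinb7, Serpinb9b, Serpinb9c, Serpinb9d, Serpinb9e, Serpinb12, Serpinb13, Serpinf2 and Serpini2. Of these, only Serpinf2, alpha-2-antiplasmin, had a group mean above the median of all gene-level values. Serpine2 and Serpina3g had no probe set with that single symbol and were not analysed here. Of the clade B genes, 8 of 24 rose above that median in some group, 4 from each chromosome, and of the clade A genes 2 of 14.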

How the data were processed

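Expression had been measured by 1-colour Affymetrix array in 35 pools of sorted mouse mammary cells. Per the labels' protocols, RNA of the sorted cells was amplified and labelled as cDNA. Each deposited table entry is a probe set's signal on the log2 scale, judged from a range of 1.74 to 13.28 and column medians of 5.81 to 5.92. The affy software is named in the submitters' processing notes, and the normalization and probe summary used by the authors are not stated there or in the labels. No column was left unmapped (0).

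Of 34760 probe sets, a supplied platform annotation gave 1 gene symbol for 21640, several for 1321 and none for 11799, and the last 2 kinds were left out. For the 954 genes with several probe sets the one with the highest mean was used, which left 19937 genes. All 47 serpin symbols matched RefSeq.

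The 35 samples were modelled together with limma 3.58.1 (R 4.3.3) as 12 group means, using lmFit and eBayes with an intensity trend and 1 common estimate of spread, and parity effects, subpopulation differences and their differences were taken as contrasts. P-values were adjusted by Benjamini-Hochberg over all 19937 genes, and a call means an adjusted p below 0.05. SE and 95% intervals are those of the fit; SD was used only in figures. Precision is limited by the 2 or 3 arrays per group. Leaving out either parous basal CD49f-high sample left 1 array in that group. The script was tested on simulated data.

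Named with values were all serpins called, those with a group mean 2 log2 units above the median of all values, a panel of 12, and up to 4 called genes per direction from each partner list. The members and lists were chosen with earlier results of these data known. Alternatives were eBayes without a trend, array weights, quantile normalization, leaving out the lowest 0.25 of genes, the mean of all probe sets, the pool or replicate number as a block, the compared subpopulations alone, and leaving out each sample; 2 more were added after the data were seen.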

Additional observations from a re-analysis of the deposited data

Results flagged for a closer look

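For 3 serpins the parity effect (parous minus nulliparous, log2) differed between subpopulations by limma's test of the difference itself. The Serpinb11 effect differed by -4.23 between basal and luminal cells, and its F statistic over all 6 subpopulations was 9.47 (adjusted p = 0.0034). The Serpinb9 effect was 1.86 higher in basal CD49f-high than in CD49f-low cells and differed by -1.92 between stromal and total epithelial cells, with an F of 15.70 (adjusted p = 1.4e-04). The Serpinb6b effect differed by -2.01 between stromal and total epithelial cells, with an F of 7.15 (adjusted p = 0.0140).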

How the results depend on the processing

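The 52 single-gene calls were recomputed 2325 times under other settings, and 2146 values kept their direction and stayed past the threshold, 179 kept their direction and missed it, and 0 changed direction; 28 of the 52 held under every setting run. Counts of called serpins moved more, and the cause was not tested unless the setting itself shows it. Fitting the compared subpopulations alone, with fewer samples, gave 0 calls in place of 5 for parity in stromal cells, 0 in place of 1 in total epithelial and in basal CD49f-low cells, 0 in place of 2 in basal CD49f-high cells, and 0 in place of 1 and of 2 for the differences in parity effect between CD49f-high and CD49f-low and between stromal and total epithelial cells. Leaving out the lowest 0.25 of genes by mean removed Serpinb11 and gave 0 in place of 1 in total epithelial cells, 1 in place of 2 in CD49f-high cells, 1 in place of 3 for the mean epithelial effect and 0 in place of 1 for basal against luminal effects. Array weights gave 2 in total epithelial, 1 in place of 0 in luminal Sca1-negative and 3 in place of 1 in CD49f-low cells, and 5 in place of 3 in the F test. Weights within each subpopulation gave 3 in CD49f-low cells, 4 in CD49f-high cells, 6 in place of 0 between CD49f-high and CD49f-low cells, 2 for the difference of their parity effects and 6 in the F test. Without the nulliparous samples numbered 1, the counts were 2 in stromal, 1 in luminal Sca1-negative and 5 in CD49f-high cells, 2 in place of 6 between luminal cells and 2 between CD49f-high and CD49f-low cells. Leaving out each sample in turn gave 1 to 5 calls in stromal, 0 to 2 in total epithelial, 1 to 2 in CD49f-low and 2 to 5 in CD49f-high cells, 2 to 6 between luminal cells, 0 to 3 between CD49f-high and CD49f-low cells, and 1 to 2 and 0 to 3 for the CD49f and the stromal differences in parity effect.

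Parous and nulliparous samples of the same number and subpopulation had correlations of deviations of -0.05 to 0.23, 4 of 17 over 0.1. Each sample was also set against the 2 or 3 samples of the other history in its subpopulation. Of the 35 samples, 25 correlated best there with their own number. Within a history, samples of the same number in 2 subpopulations correlated at 0.03 to 0.34 in nulliparous mice (28 of 45 over 0.1). In parous mice the range was 0.01 to 0.20 (15 of 40 over 0.1). The main fit had no term for the replicate number. The replicate block as a fixed term gave 2 calls in CD49f-low cells, 4 in CD49f-high cells and 2 between CD49f-high and CD49f-low cells, the block by pool gave 3 between CD49f-high and CD49f-low cells, and neither moved another count past 1.5 times; of single genes, the block by pool ended only the Serpinb3c call (adjusted p = 0.0811).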
